A study of Mus musculus with 12 samples.

Results

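The last step of a short retinoic acid (RA) time course was examined: cells after 6 h of RA were set against cells after 4 h, across all genes. The comparison uses 6 of the 12 arrays of the series, the 3 labelled with 6 h of exposure and the 3 labelled with 4 h, taken by their labels. The cells are KH2 mouse embryonic stem (ES) cells, an established line grown on feeder cells. Both groups received a differentiation medium of DMEM, serum and non-essential amino acids that contained 0.3 µM RA, for 6 h in one group and 4 h in the other, and were then trypsinised and replated on gelatin for 30 min in medium without RA. The remaining arrays, 3 of untreated cells and 3 after 2 h of RA, entered the fit to give a common estimate of the spread. The protocols disagree on which cells were kept after replating: 1 text describes lysis of the attached cells and the other describes spinning down the medium. No label says that replicates A, B and C came from separate cultures, so the p-values measure the spread between these arrays, which may be technical.

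RA is the vitamin A derivative that enters the nucleus, binds heterodimers of RA receptors (RAR) and retinoid X receptors (RXR) on DNA, and turns repressed target genes into active ones. In ES cells the earliest targets include Cyp26a1, which encodes the enzyme that degrades RA, the receptor gene Rarb, and the 3′ genes of the Hox clusters. Loss of the pluripotency network follows more slowly. RA also reaches genes indirectly, through the transcription factors and signalling pathways that its direct targets change.

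Values are log2 signal of Affymetrix probe sets, and the probe set with the highest mean was used for each of 18193 genes. The median of all values was 6.07, and genes near it or below it are dim on these arrays. Correlations between arrays of the same group lay between 0.997 and 0.998 at 6 h and at 4 h. Untreated arrays scattered more around their group mean, with an SD over genes of 0.130, 0.135 and 0.197 for A, B and C, against 0.0816 to 0.106 for the arrays with RA. ES cell markers were bright at both times, and Pou5f1, the central pluripotency factor, averaged 13.30 at 6 h and 13.25 at 4 h. The primitive endoderm markers Gata4 and Foxa2 were dimmer. Gata4 was at 6.33 at 6 h and 6.32 at 4 h, and Foxa2 at 5.96 at 6 h and 6.01 at 4 h. The wider list of 19 primitive and parietal endoderm genes averaged 7.74 at 6 h and 7.78 at 4 h. RA exposure was visible in Cyp26a1, which averaged 12.27 at 6 h against 5.81 in untreated cells. With 3 arrays a group, the precision of all values below is limited.

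Few genes moved in these last hours. After 6 h, 57 genes were higher than after 4 h (0.313% of the genes tested) and 50 were lower (0.275%), 107 in all (0.588%), by limma with p adjusted after Benjamini and Hochberg and a threshold of 0.05. No rise reached 1 log2 unit, and 2 falls did, those of Fry and Cidea, Fry being dim at 6 h. Another 17 rises and 10 falls were at least 1.5-fold on the signal scale, dim genes included. At an unadjusted p under 0.05, 1237 genes were higher (6.8%) and 1147 lower (6.3%). In all 107 called genes the 3 arrays of 6 h lay apart from the 3 of 4 h, as they did in 13.4% of all genes in the upward direction and 10.4% in the downward direction.

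The number of calls depended on the untreated arrays. Fitted on the 9 arrays with RA alone, 436 genes were higher (2.4%) and 273 lower (1.5%), and these included each of the 107. Leaving out only untreated replicate C gave 443 and 297 genes. Single arrays of the step mattered in the other direction: without 1 of the 6, between 1 and 11 genes were called higher and between 4 and 11 lower. Phf21a, Fry, Jam2, St6galnac3 and Cobl were called whichever of the 6 arrays was left out. Of the 107 calls, 27 were made in at least 1 of these 6 fits and the rest in none.

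**Figure D1:**
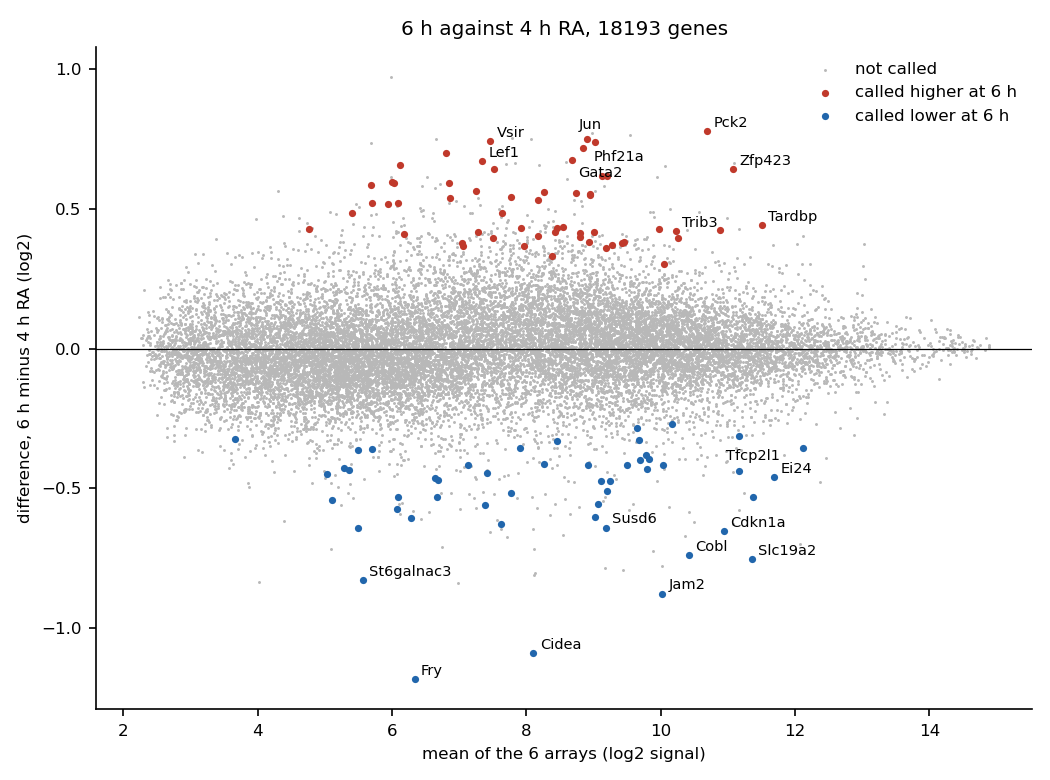
Difference between 6 h and 4 h of RA (6 h minus 4 h, log2) against the mean log2 signal of the 2 groups, for 18193 genes; each point is a gene, red for the 57 called higher, blue for the 50 called lower and grey for the rest. Called differences lie between 0.27 and 1.18 in size and are spread over most of the range of signal, and the median of all genes is −0.0046.

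The strongest fall was that of Fry, which encodes a large scaffold protein of the kinase network that shapes cells and the mitotic spindle. It stood at 5.75, 5.84 and 5.66 at 6 h, against 6.98, 6.95 and 6.87 at 4 h. The groups were separated by a gap several times wider than either group, and the 6 h values were dim, so that the fall of 1.18 ± 0.066 (SE, adjusted p = 1.3e-05) has no reliable fold. Of its 4 probe sets, 2 fell in the same direction and the highest of the others was at 0.11.

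Cidea, a lipid droplet protein, was at 7.69, 7.47 and 7.52 at 6 h, against 8.85, 8.52 and 8.58 at 4 h. All 3 arrays of 6 h were about 1 log2 unit lower, a fall to a level 2.13-fold below that at 4 h (−1.09 ± 0.14, adjusted p = 0.0111). The junctional adhesion molecule gene Jam2 had 9.62, 9.52 and 9.61 at 6 h, against 10.57, 10.46 and 10.35 at 4 h. It was 1.84-fold lower (−0.88 ± 0.069, adjusted p = 0.000185), and all 5 of its probe sets agreed in sign. Cobl, whose protein nucleates actin filaments, was at 10.03, 10.03 and 10.08 at 6 h, against 10.75, 10.85 and 10.76 at 4 h. These were among the tightest replicates of the step, and the difference was −0.74 ± 0.055 (adjusted p = 0.000165).

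St6galnac3, a sialyltransferase gene, was the last of the 5 genes called in every such fit. Its values were 5.03, 5.17 and 5.25 at 6 h, against 6.03, 5.90 and 6.00 at 4 h, all of them dim. The thiamine transporter gene Slc19a2, by contrast, was bright and fell 1.69-fold (−0.75 ± 0.13, adjusted p = 0.0338), with 11.20, 10.96 and 10.77 at 6 h against 11.84, 11.64 and 11.70 at 4 h. Other leading falls, beside those of Cdkn1a and Polk given below, were those of Susd6 (−0.64 ± 0.087), Lrtm2 (−0.64 ± 0.078), the presynaptic scaffold Erc2 (−0.61 ± 0.085), the tyrosine phosphatase Ptpn13 (−0.57 ± 0.11), the adenylate cyclase Adcy1 (−0.56 ± 0.10) and Fxyd6, a modulator of the sodium pump (−0.56 ± 0.10). A transcript known only as 9230114K14Rik was also lower, by 0.63 ± 0.11. Among the 50 genes lower at 6 h, 13 had a mean under 6.07 at 6 h or 4 h. These included Lrtm2, dim at both times, and Erc2 and Ptpn13, dim at 6 h.

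On the rising side Pck2, the mitochondrial phosphoenolpyruvate carboxykinase that feeds serine and glycerol synthesis, came first. It reached 11.05, 10.98 and 11.22 at 6 h, against 10.18, 10.44 and 10.29 at 4 h. The lowest 6 h array was above the highest 4 h array by more than the range within either group, and the rise was 1.71-fold (0.78 ± 0.12, adjusted p = 0.0195). Jun, a subunit of the AP-1 transcription factor, had 9.44, 9.24 and 9.16 at 6 h, against 8.69, 8.55 and 8.36 at 4 h. It was 1.68-fold higher (0.75 ± 0.14, adjusted p = 0.0423). Like the call of Pck2 and most of the 107, that of Jun was lost when any of the 6 arrays was left out.

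Vsir, which encodes the immune checkpoint receptor VISTA, was at 7.89, 7.89 and 7.71 at 6 h, against 7.19, 7.11 and 6.97 at 4 h. Plekha2, an adaptor that binds phosphoinositides, was at 9.44, 9.44 and 9.28 at 6 h, against 8.68, 8.56 and 8.71 at 4 h. Both rose 1.67-fold, with adjusted p = 0.0195 and 0.0242. The most stable rise was that of Phf21a, a subunit of the LSD1 histone demethylase complex that reads unmethylated histone H3: 9.16, 9.21 and 9.24 at 6 h, against 8.39, 8.54 and 8.53 at 4 h (0.72 ± 0.072, adjusted p = 0.00195). Its 4 probe sets all moved up, by 0.11 to 0.72.

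Among the other leading rises, Gata2, a zinc-finger factor of blood and trophoblast, was at 9.20, 9.02 and 8.83 at 6 h, against 8.27, 8.42 and 8.34 at 4 h (0.67 ± 0.12, adjusted p = 0.0376). Lef1, a nuclear effector of Wnt signalling, was at 7.72, 7.87 and 7.44 at 6 h, against 7.18, 6.95 and 6.89 at 4 h (0.67 ± 0.13, adjusted p = 0.0435). Ebf1 and Zfp423 encode proteins that bind each other, the second of which also takes part in RA and BMP responses. Ebf1 was dim, with 6.33, 6.66 and 6.35 at 6 h and 5.75, 5.81 and 5.82 at 4 h, whereas Zfp423 was bright, with 11.33, 11.42 and 11.47 at 6 h against 10.50, 10.85 and 10.93 at 4 h. The nuclear receptor coactivator Ncoa2 rose by 0.62 ± 0.095, the homeobox gene Mkx by 0.59 ± 0.11, and the zinc-finger genes Zfp367 and Zfp783 by 0.62 ± 0.11 and 0.60 ± 0.11. Zfp783 was dim at 4 h. The other probe sets of Zfp367 and Zfp783 were at 0.05 and −0.15, and the lowest of the 4 of Ncoa2 at −0.08. Of the 73 called genes with over 1 probe set, higher and lower together, 48 had all of them in the same direction. Inpp1, an inositol phosphatase (0.64 ± 0.097), and Sh3bp5 (0.70 ± 0.10) closed the 15 largest rises. Of the 57 genes higher at 6 h, 10 had a mean under 6.07 in either group.

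**Figure D2:**
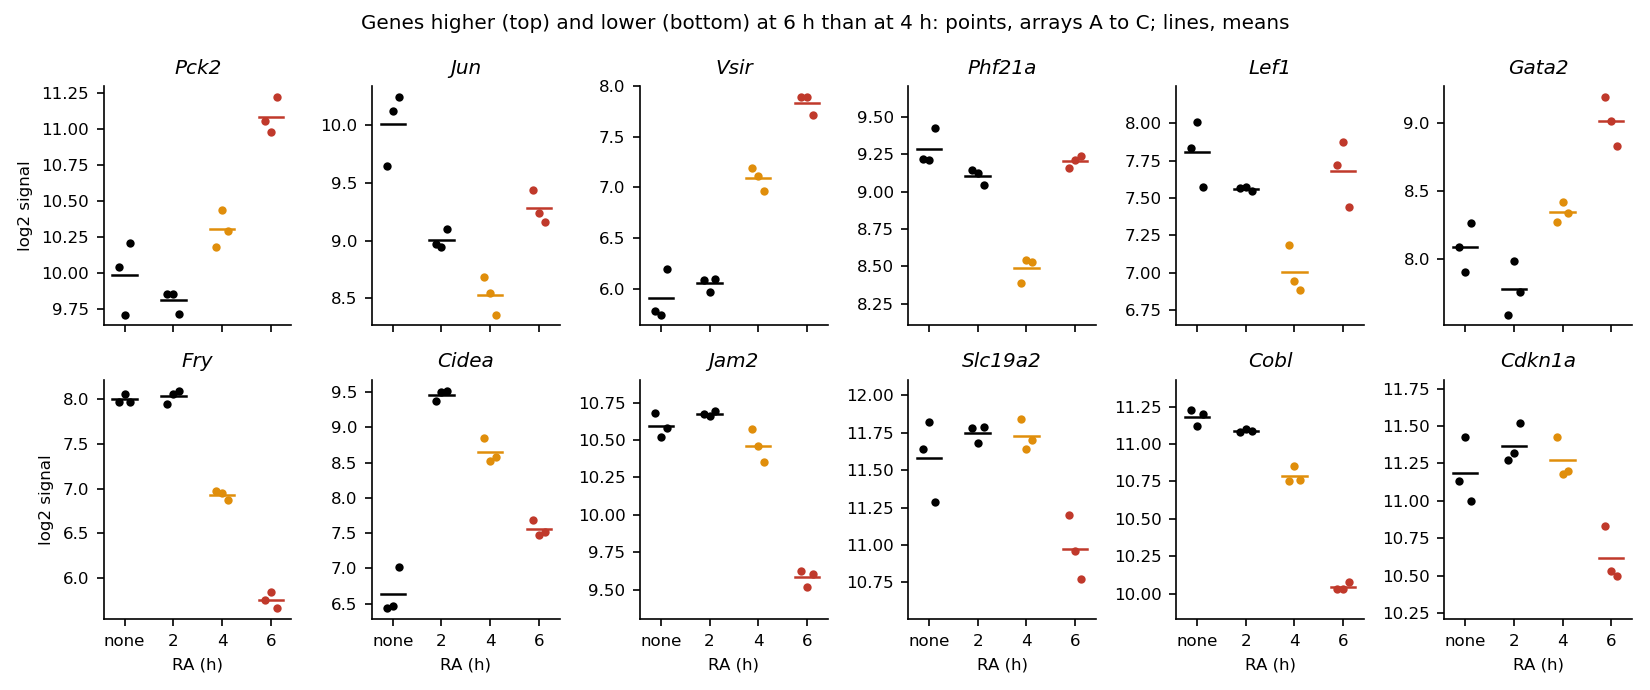
Log2 signal of leading genes on each of the 12 arrays, in order of time without RA and after 2, 4 and 6 h; points are arrays, orange for 4 h, red for 6 h and black for the earlier groups. In every panel the red points lie wholly above or wholly below the orange ones, and Cidea and Jun differ in direction between no RA and 2 h and again between 4 h and 6 h.

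Some of the smaller called changes are given here as examples, picked after their values were seen. Higher at 6 h were Arid1b, a subunit of the BAF remodelling complex (0.44), the chromodomain remodeller Chd2 (0.40), the bromodomain gene Baz2b (0.43), the Polycomb-related genes Sfmbt2 (0.56) and Scmh1 (0.37), the formin genes Fmnl2 (0.42), Daam1 (0.38) and Fhod1 (0.40), and Porcn, the acyltransferase that Wnt ligands need for secretion (0.42). Lower were the related small GTPase genes Rap2a (−0.51) and Rap2b (−0.47) and the kinase Tnik, a known effector of Rap2 (−0.54), along with the formin Diaph2 (−0.52), the secreted Wnt inhibitor Sfrp1 (−0.43), the phosphoinositide kinase Pikfyve (−0.38) and the DNA-binding factor Arid3a (−0.36).

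The clearest group on the falling side was p53 and its targets. p53 is a transcription factor held low by the ubiquitin ligase Mdm2 and stabilised by DNA damage and other stress, and its targets arrest the cell cycle, repair DNA or start apoptosis. Of 24 measured genes, none was called higher and 3 were called lower, against 0.275% of all genes. Their median difference was −0.36, that of all genes −0.0046, and 20 of the 24 were negative. In 18 of them every 6 h array lay below every 4 h array, against 10.4% of all genes, and 18 were lower at an unadjusted p under 0.05. With the 9 arrays with RA, 11 were called lower, against 1.5% of all genes.

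Cdkn1a, which encodes the cell cycle inhibitor p21, was at 10.83, 10.53 and 10.50 at 6 h, against 11.43, 11.18 and 11.20 at 4 h. It was 1.57-fold lower (−0.65 ± 0.13, adjusted p = 0.0479), a call close to the threshold that was lost when any of the 6 arrays was left out and after median centring (adjusted p = 0.0519). The translesion DNA polymerase Polk was at 8.87, 8.71 and 8.61 at 6 h, against 9.50, 9.24 and 9.25 at 4 h (−0.60 ± 0.10, adjusted p = 0.0292). Ei24, a p53-induced gene of the endoplasmic reticulum linked to autophagy, was at 11.53, 11.52 and 11.33 at 6 h, against 11.98, 11.90 and 11.88 at 4 h (−0.46 ± 0.070, adjusted p = 0.0195). In each of these genes replicate A was the highest array at both times, and the calls of Polk and Ei24, like that of Cdkn1a, were lost when any of the 6 arrays was left out.

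The other members that differed most did not pass. Ddit4l, an inhibitor of mTOR signalling, was at −0.81 (adjusted p = 0.0743), the polo-like kinase Plk2 at −0.78 (0.148), Phlda3, an inhibitor of Akt, at −0.63 (0.0529) and Mdm2 itself at −0.58 (0.137). The death receptor gene Tnfrsf10b and the pro-apoptotic BH3 genes Pmaip1 and Bbc3 were at −0.29, −0.38 and −0.35. Fas, Sesn1, Perp and Rrm2b stood at 0.01, 0.02, 0.11 and 0.15, all with overlapping arrays. Averaged over the 24 genes, the log2 level was 9.88, 9.71 and 9.60 at 6 h, against 10.21, 10.05 and 9.99 at 4 h. It had been 9.77 in untreated cells and 9.91 after 2 h, so that the mean at 4 h was the highest of the 4 times and that at 6 h the lowest.

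The promoter of Cdkn1a is shown because it was the only window of the list that held a p53 element. Windows of 250 bases before to 50 after annotated transcription starts, taken from RefSeq on GRCm38.p6, were available for 18 of the 24 genes, with 26 windows. A p53 element, a pair of decamers with at most 13 bases between them, was searched on both strands and was chosen after the values were seen. It was found in 1 of the 26 windows and in 24 of 32851 windows of all genes (0.0731%). The match lies before an upstream start of Cdkn1a, with 12 bases between the decamers (capitals) and its first base at −73, in chr17:29090901-29090942 on the plus strand. Positions are counted from the start site, with no 0, and a match describes letters and is not a measured site.
Cdkn1a: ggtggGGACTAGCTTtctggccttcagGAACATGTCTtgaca

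**Figure D3:**
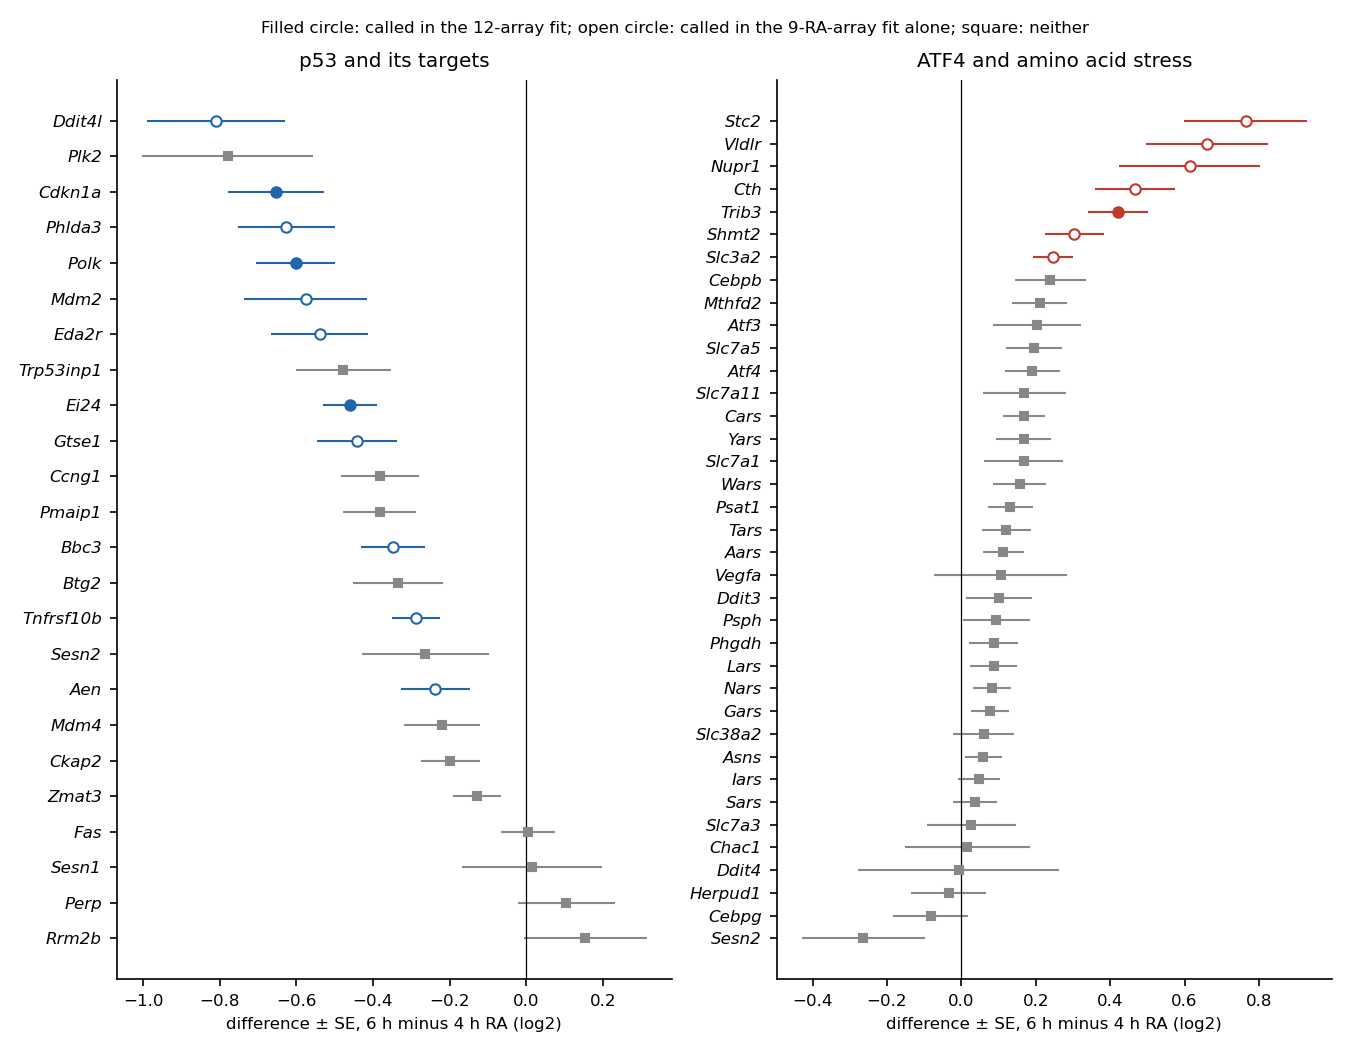
Difference between 6 h and 4 h (log2, 6 h minus 4 h) for each measured gene of the p53 list and of the ATF4 list; points are the fitted values and bars the standard error, with filled circles where called with the 12 arrays, open circles where called with the 9 arrays with RA alone, and squares where called in neither. Of the p53 genes 20 of 24 lie left of 0, and of the ATF4 genes 33 of 37 lie right of it.

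The ATF4 list leaned the other way. ATF4 is the transcription factor that is translated when amino acids are scarce or proteins misfold, and it drives amino acid import and synthesis, the charging of tRNAs and the feedback inhibitor Trib3. Of 37 measured genes, 1 was called higher, against 0.313% of all genes, and none lower. The median difference was 0.12, with 33 of 37 positive, and in 23 every 6 h array lay above every 4 h array, against 13.4% of all genes. Sesn2 belongs to this list and to the p53 list. Under an unadjusted p of 0.05 were 14. In the fit of the 9 arrays with RA, 7 were called higher, against 2.4% of all genes.

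Trib3, a pseudokinase induced by ATF4 that then restrains it, was at 10.37, 10.33 and 10.62 at 6 h, against 10.10, 10.01 and 9.94 at 4 h. The rise was 1.34-fold (0.42 ± 0.081, adjusted p = 0.0481) and was lost when any of the 6 arrays was left out and with only the 6 arrays fitted (adjusted p = 0.0699). Stc2, a secreted glycoprotein of stressed cells, had a larger difference of 0.76 ± 0.16 with an adjusted p of 0.0651: 9.75, 9.87 and 10.16 at 6 h, against 9.24, 9.29 and 8.97 at 4 h. The lipoprotein receptor Vldlr was at 0.66 (0.0986), the stress cofactor Nupr1 at 0.61 (0.183), the cystathionine lyase Cth at 0.47 (0.0801), the mitochondrial serine hydroxymethyltransferase Shmt2 at 0.30 (0.118) and the amino acid transporter chain Slc3a2 at 0.25 (0.072). These 5, Stc2 and Trib3 were the 7 called with the 9 arrays. The aminoacyl-tRNA synthetase genes differed little, from 0.04 for Sars to 0.17 for Cars, and Atf4 itself was at 0.19 (0.295). Pck2, the leading riser, is a known ATF4 target in mammalian cells and was not a member of the list.

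Promoters bear on these genes because ATF4 with its partner C/EBP binds a composite element whose core reads TGATGNAA. It was searched on both strands in the same RefSeq windows (GRCm38.p6), and it was chosen after the values were seen. It occurred in 13 of 34 windows of the list (38.2%), which belong to 13 of the 30 genes with a window (43.3%), against 3.97% of all 32851 windows. The list was made of genes of the ATF4 response, so this share describes the choice of members and not the step. Among genes called higher 2.7% of windows held it, and among genes called lower 1.89%. The core shares the letters TGA with the Jun-type element TGACNTCA and the AP-1 element TGANTCA, but a match to it cannot also match either of them from the same first base.

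The stretches below are those with the largest differences among Pck2 and the list genes with a match. Stc2, which had the largest difference of the list, is not among the genes with a match. The stretches are printed along the gene's strand with the match and nothing else in capitals: Pck2 (chr14:55540153-55540180, plus strand, first base of the match at −103), Vldlr (chr19:27216810-27216837, plus, −200), Nupr1 (chr7:126625563-126625590, minus, −110), Trib3 (chr2:152344029-152344056, minus, 15) and, as genes with the same core and little difference, Asns (chr6:7693215-7693242, minus, −23) and Chac1 (chr2:119351039-119351066, plus, −193).
Pck2: gccttcaaagTTACATCAgtatcttaca
Vldlr: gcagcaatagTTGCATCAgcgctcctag
Nupr1: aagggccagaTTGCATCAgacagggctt
Trib3: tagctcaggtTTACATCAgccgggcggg
Asns: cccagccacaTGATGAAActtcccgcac
Chac1: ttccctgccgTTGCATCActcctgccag
All but that of Asns carry the core on the reverse strand. Asns, the asparagine synthetase, was at 0.06 and Chac1, which degrades glutathione, at 0.02, beside 0.78 for Pck2, so that genes with the core differed widely among themselves.

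Among 30 immediate early genes, which respond within minutes to growth factors and to handling, only Jun was called. Fos, its partner in AP-1, was at 12.44, 12.20 and 12.32 at 6 h, against 12.06, 11.87 and 11.82 at 4 h, without overlap. Its difference of 0.40 ± 0.11 had an adjusted p of 0.129, and of 0.0387 with the 9 arrays with RA. Fosb was at 0.51 (0.338) and Egr1 at −0.16 (0.534). The Jun promoter window (GRCm38.p6, chr4:95052173-95052472, minus strand) is printed because the gene is known to be bound by its own product at a site of the TGACNTCA type, searched on both strands and present in 8.83% of all windows. The match, in capitals, starts at −45.
Jun: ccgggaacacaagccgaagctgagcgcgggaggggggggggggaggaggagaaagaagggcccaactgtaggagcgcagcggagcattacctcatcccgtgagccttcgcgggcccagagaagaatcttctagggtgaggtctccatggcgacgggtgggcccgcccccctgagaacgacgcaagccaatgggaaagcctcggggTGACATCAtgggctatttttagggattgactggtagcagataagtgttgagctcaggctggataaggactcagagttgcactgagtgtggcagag
Among genes called higher, 12.2% of windows held this element, and among genes called lower 7.55%.

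Direct RA targets named at the outset were next. Of 14 genes of RA metabolism none was called, against 0.588% of all genes. With the 9 arrays with RA, 1 was called higher and 1 lower. Cyp26a1 was at 12.27 on all 3 arrays of 6 h, against 12.64, 12.66 and 12.69 at 4 h, a difference of −0.39 ± 0.084 that missed the threshold (adjusted p = 0.0651) and passed with the 9 arrays with RA (0.0154). The short-chain reductase Dhrs3 was at 0.07 ± 0.28. Rarb was at 6.77, 6.78 and 7.04 at 6 h, against 7.19, 7.33 and 7.34 at 4 h, without overlap (−0.43 ± 0.16, adjusted p = 0.296, and 0.0467 with the 9 arrays with RA). Cyp26a1 and Rarb were thus both called lower at 6 h in that fit and not in the fit of all 12 arrays, with the same differences in both. Of 16 receptor and coregulator genes, Ncoa2 alone was called.

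The Hoxa and Hoxb clusters held 18 measured genes and no call. Their median was 0.11, 14 were positive, and in 1 alone, Hoxb13, the arrays did not overlap. Hoxb1 was at 9.04, 9.63 and 9.48 at 6 h, against 8.90, 9.45 and 9.08 at 4 h, after 3.69 in untreated cells. Hoxa5 ranged from 7.81 to 8.95 at 6 h and from 7.66 to 8.54 at 4 h. Differences between replicates within a group therefore exceeded the difference between groups in Hoxa5 (0.28 ± 0.33). Within each letter its 6 h array was the higher, with 7.81, 8.23 and 8.95 for A, B and C against 7.66, 7.94 and 8.54. The caudal gene Cdx1 was at −0.07 ± 0.13 and the Hox cofactor Meis1 at 0.26 ± 0.16. Among 13 TALE and Cdx genes, Pbx3 (0.46, adjusted p = 0.0915) and Pbx2 (0.34, 0.23) came closest, and both were called with the 9 arrays with RA.

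In the naive pluripotency list 1 of 28 genes was called, Tfcp2l1, a factor that sustains self-renewal downstream of LIF. It was at 10.96, 10.92 and 10.96 at 6 h, against 11.36, 11.35 and 11.44 at 4 h (−0.44 ± 0.061, adjusted p = 0.0155), while another of its probe sets was at 0.22 (adjusted p = 0.283). Nr0b1, which encodes the nuclear receptor DAX1, was at 11.84, 11.71 and 11.62 at 6 h, against 12.49, 12.47 and 12.31 at 4 h. Its groups were well apart, but the difference of −0.70 ± 0.18 had an adjusted p of 0.109, and 0.00346 with the 9 arrays with RA. Nanog was at −0.11 ± 0.077, Sox2 at −0.10 ± 0.071, Klf4 at −0.07 ± 0.079 and Pou5f1 at 0.05 ± 0.053. The list's median was −0.064 and 21 of 28 genes were negative.

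Among signalling genes, some were called or not depending on the untreated arrays. Id3, a BMP target that blocks differentiation factors, was at 9.59, 9.54 and 9.44 at 6 h, against 10.38, 10.17 and 10.19 at 4 h, and Spry4, an inhibitor of ERK signalling, at 10.24, 10.03 and 10.14 at 6 h, against 10.72, 10.82 and 10.62 at 4 h. Neither was called (adjusted p = 0.439 and 0.506), and both were called with the 9 arrays with RA (0.00309 and 0.0071). In the same lists Smad6, an inhibitor of BMP signalling, was at 0.56 (0.369 and 0.0178), and Dusp6 at −0.26 and Id1 at −0.35 were called in neither fit. Of 25 Nodal and BMP genes and 21 FGF and ERK genes none was called with the 12 arrays.

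Of the 39 lists examined, 10 had a called member. The other 29 hold 715 measured members, a gene being counted once for each of these lists it is in. Of these members 45 were higher (6.29%) and 33 lower (4.62%) at an unadjusted p under 0.05, against 6.8% and 6.3% of all genes. With the 9 arrays with RA 38 of them were called (5.31%), against 3.9% of all genes. In 34 lists the median lay between −0.1 and 0.1. The 5 outside that range were the p53, ATF4 and Hoxa and Hoxb lists, cholesterol synthesis (−0.13) and the feeder markers (−0.13). In cholesterol synthesis and uptake 18 of 20 genes were negative and 11 had all 6 h arrays below all 4 h arrays, against 10.4% of all genes, with Tm7sf2, a sterol reductase (−0.34, adjusted p = 0.106), and the squalene synthase Fdft1 (−0.22, 0.236) as examples.

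**Figure D4:**
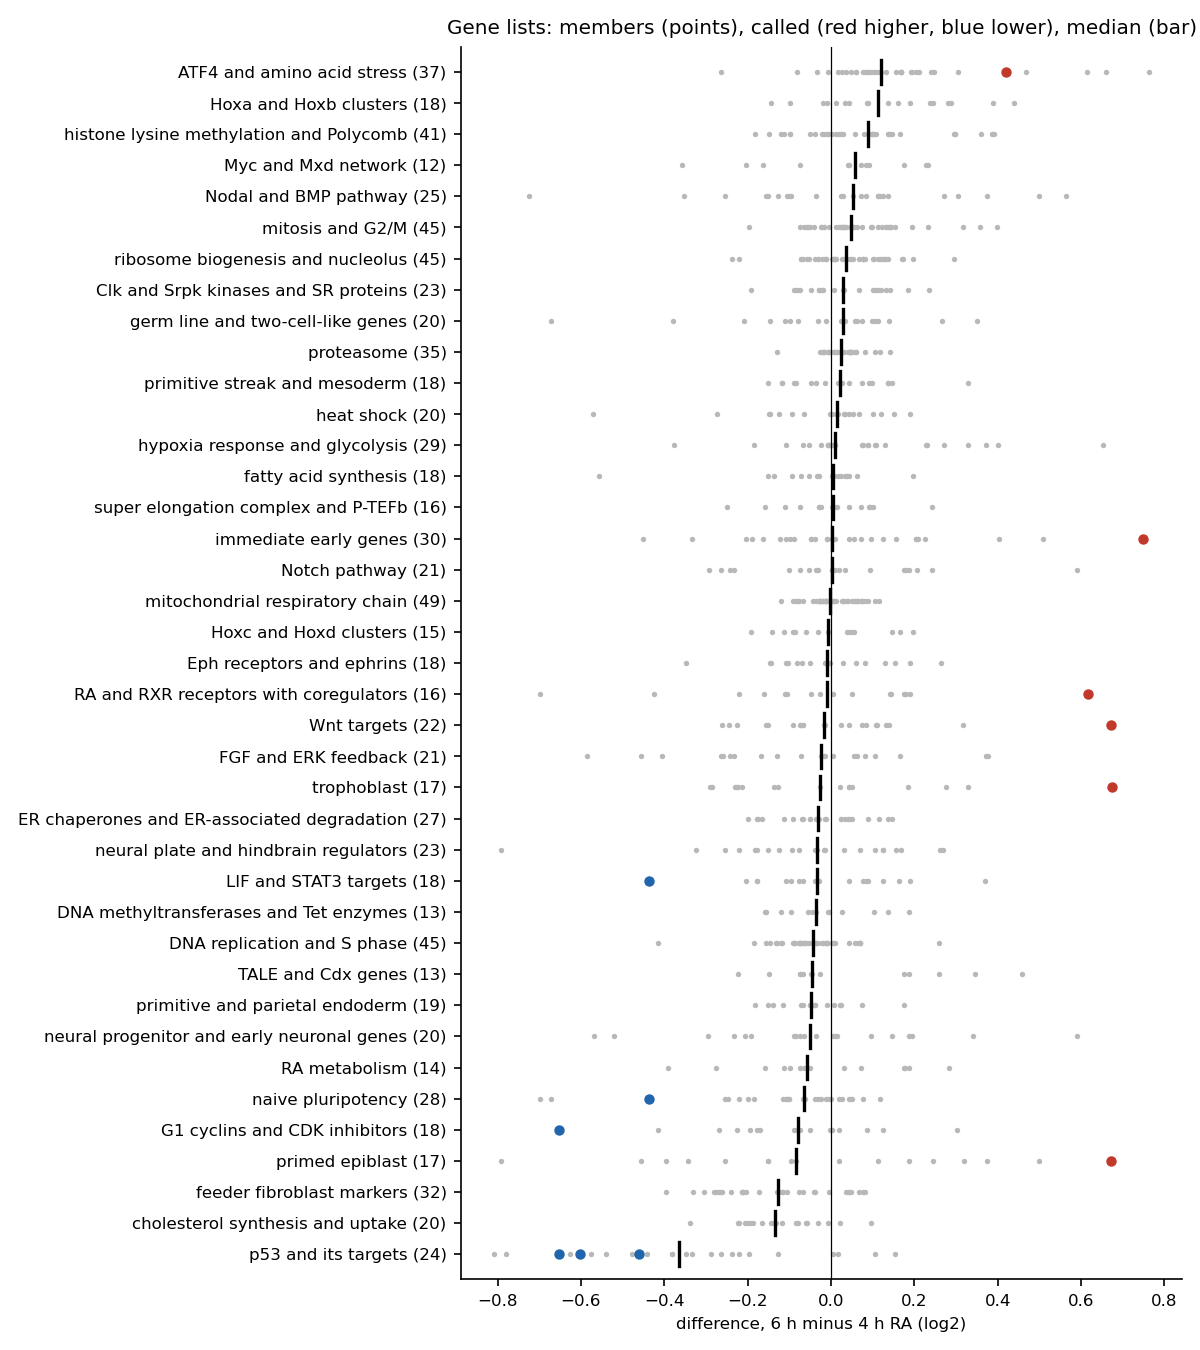
Differences between 6 h and 4 h (log2, 6 h minus 4 h) of the measured genes of each of the 39 lists; each point is a gene, red or blue where called higher or lower, and the black bar marks the median of the list. The p53 list is the only one whose median lies below −0.2, and most other medians lie close to that of all genes.

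The cell cycle lists held 1 call, that of Cdkn1a. Of 45 mitosis genes 33 were positive and 13 had all 6 h arrays above all 4 h arrays, against 13.4% of all genes, with the phosphatase Cdc25b at 0.40 (adjusted p = 0.078) and the kinesin Kif20b at 0.36 (0.104). Of 45 replication genes 35 were negative, and the medians were 0.047 and −0.044. Among the 41 genes of the histone lysine methylation and Polycomb list none was called, against 0.588% of all genes. The called genes Phf21a, Sfmbt2 and Scmh1 were not members of it. With the 9 arrays with RA 5 of the list were called higher, against 2.4% of all genes: the demethylases Kdm4a (0.30), Kdm4b (0.39), Kdm4c (0.39) and Kdm2b (0.30) and the methyltransferase Ezh1 (0.30). The hypoxia and glycolysis list had 4 of 29 higher in that fit, against the same 2.4%, the oxygen sensors Egln3 (0.65) and Egln1 (0.33), the hexokinase Hk2 (0.37) and Ankrd37 (0.40), with Hk1 lower (−0.38). The 49 respiratory chain genes stayed within −0.12 and 0.12.

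The ES cells were grown on feeder cells, and most fibroblast markers were slightly lower at 6 h than at 4 h. Whether the signal of these markers came from feeder cells was not tested. Of 32 fibroblast markers none was called, 25 were negative and 7 had all 6 h arrays below all 4 h arrays, against 10.4% of all genes. Their summed linear signal was 25740, 23380 and 24980 at 6 h, against 28150, 26090 and 29050 at 4 h, without overlap. Mmp2, a matrix metalloproteinase, was at −0.40 (adjusted p = 0.0709) and was the 1 marker called with the 9 arrays with RA (0.0206). Of the markers taken as defining, all were above 6.07 in both groups, while Lum (5.37 at 6 h and 5.29 at 4 h) and Fap (4.64 at 6 h and 4.97 at 4 h) of the wider list were below it. Among the defining markers, Col1a1 averaged 8.46 at 6 h and 8.54 at 4 h, and in the same order Col1a2 10.13 and 10.39, Col3a1 9.60 and 9.55, Thy1 8.60 and 8.88, Postn 8.49 and 8.66, and Fn1 12.71 and 12.92. The part of feeder RNA in the falling genes was not tested, and fewer cells of a type cannot be told apart from less RNA per cell in such bulk samples.

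The first 2 h of RA, compared with untreated cells, share no array with the step and give the earlier course of the same genes. In that comparison 272 genes were higher (1.5%) and 216 lower (1.19%). Whether the untreated cells had the medium and replating of the RA groups is not stated here. A part of either in these differences was not tested. Of the 57 genes higher at 6 h than at 4 h, 13 had been lower at 2 h, 4 higher and 40 neither. Of the 50 genes lower at 6 h, 8 had been higher at 2 h, 1 lower and 41 neither. More of the called genes of this step had thus moved the opposite way in the first 2 h, 21, than the same way, 5, a count made without a test. Both comparisons took the spread of each gene from the same fit, so a gene of small spread is more readily called in both.

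Cidea was the largest of the opposite movers. It averaged 6.64 ± 0.33 in untreated cells, 9.47 ± 0.077 at 2 h, 8.65 ± 0.18 at 4 h and 7.56 ± 0.12 at 6 h (SD, n = 3 each), so the peak lay at the earliest time with RA. Jun moved the other way in the first 2 h and in the last step, while both genes were lower at 4 h than at 2 h. It averaged 10.00 ± 0.31 in untreated cells, 9.01 ± 0.085 at 2 h, 8.53 ± 0.16 at 4 h and 9.28 ± 0.14 at 6 h. Other genes lower in the first 2 h and higher in the last were the hypoxia factor Epas1, the melanocyte and lysosome factor Mitf and the Polycomb-related Sfmbt2, and genes higher first and lower last included Lrtm2, Ei24 and the corepressor Runx1t1. The 4 genes that rose in both steps were Trib3, Porcn, the glycine transporter Slc6a9 and Tmtc1, and the exchange factor gene Mcf2 fell in both.

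Several leading genes were not called in the first 2 h and differed widely by 4 h. Fry averaged 8.0 ± 0.050 in untreated cells, 8.04 ± 0.078 at 2 h, 6.93 ± 0.055 at 4 h and 5.75 ± 0.090 at 6 h (SD, n = 3 each), 2 falls of about the same size. Vsir averaged 5.91 ± 0.25, 6.05 ± 0.073, 7.09 ± 0.11 and 7.83 ± 0.10 at these times, and Zfp423 9.40 ± 0.19, 9.26 ± 0.11, 10.76 ± 0.23 and 11.40 ± 0.071. Jam2 differed in its timing, with 10.59 ± 0.081, 10.68 ± 0.016 and 10.46 ± 0.11 at the earlier times and 9.58 ± 0.059 at 6 h. Plekha2, Phf21a and Lef1 were lower at 4 h than at 2 h and higher again at 6 h. Phf21a averaged 9.28 ± 0.12 in untreated cells, 9.11 ± 0.051 at 2 h, 8.49 ± 0.085 at 4 h and 9.20 ± 0.041 at 6 h, and was not called at 6 h against untreated cells (−0.08, adjusted p = 0.46). Called genes are chosen by a difference from the 4 h arrays, so a low point at 4 h is in part a matter of that choice.

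**Figure D5:**
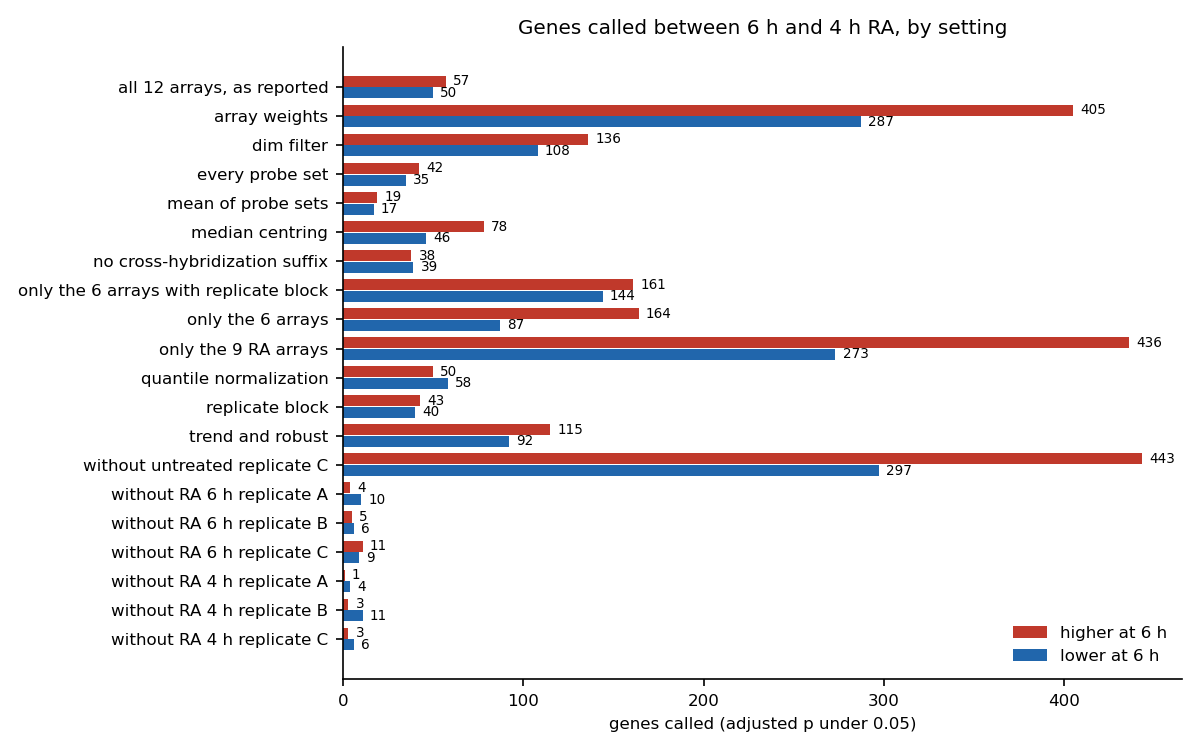
Number of genes called higher (red) and lower (blue) at 6 h against 4 h under each way of processing; bars start at 0. The fits without the untreated arrays, without untreated replicate C or with array weights give the longest bars, and those without 1 of the 6 arrays the shortest.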

How the data were processed

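RNA (200 ng, biotin-labelled) was measured on Affymetrix mouse arrays. The authors deposited 45101 log2 probe set signals for each array. How these were normalized is not given in the sources used here beyond limma 3.4.3 in the submitters' processing notes. Array medians lay between 6.05 and 6.10. By the platform annotation 34945 probe sets name 1 gene, 932 several and 9160 none. Groups were taken from the labels. All 12 arrays entered 1 fit of group means (limma 3.58.1, R 4.3.3, lmFit and eBayes, 8 residual degrees of freedom), and p-values were adjusted over 18193 genes. In simulated data the fit recovered 61% of genes changed by 0.5 and 97% of those changed by 1 (log2), with 11 false calls. The simulated noise was independent, with 1 spread per gene that was the same on all 12 arrays. These figures therefore do not cover arrays that scatter more, such as untreated replicate C, or deviations shared by letter. Named genes are the 15 largest called rises and falls, up to 4 called or the 2 most different members of each list, and a fixed set. Members, lists and alternatives were chosen with earlier results of these data known. Promoter sequences are RefSeq's (GRCm38.p6).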

Additional observations from a re-analysis of the deposited data

How the results depend on the processing

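Against 57 genes higher and 50 lower, array weights gave 405 and 287, a filter on dim genes 136 and 108, averaging all probe sets of a gene 19 and 17, only the 6 arrays 164 and 87, the 9 arrays with RA 436 and 273, a trended and robust variance 115 and 92, and the fit without untreated replicate C 443 and 297. Adjusted p under 0.01 left 2 and 5, and a 1.5-fold minimum 17 and 12. Leaving out each of the 6 arrays gave 1 to 11 higher and 4 to 11 lower. Median centring gave 78 and 46, moving the share of higher calls to 62.9% from 53.3%. Quantile normalization gave 50 and 58. Testing every probe set gave 42 and 35 genes, 57 of them among the 107. The 488 genes that differed at 2 h against untreated became 734 without untreated replicate C, a setting added after seeing the data. The cause was not tested. With the replicate letter as a block, 43 genes were higher and 40 lower, 66 of them among the 107. Named genes not called with the block were Jun (adjusted p = 0.0737), Gata2 (0.066), Zfp423 (0.0636), Cdkn1a (0.069), 9230114K14Rik (0.0528), Ptpn13 (0.0665), Adcy1 (0.0682), Fxyd6 (0.0619) and Trib3 (0.0737). On the 6 arrays alone the block, added after seeing the data, gave 161 and 144. Deviations of same-lettered arrays correlated at 0.266, 0.0568 and 0.315 for A, B and C, and those of different letters between −0.304 and 0.0628. No label pairs the samples by letter, and the main fit used no pairing. Whether arrays of the same letter share an effect was not tested. With another probe set Tfcp2l1 was at 0.22 (adjusted p = 0.283) and Dnmt3a at −0.40 (adjusted p = 0.0445), opposite to the values of their brightest probe sets, −0.44 and 0.19.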
